A study of Mus musculus with 4 samples.

Results

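The latent TGF-β binding proteins and fibrillins are a family of 6 mouse genes, Ltbp1, Ltbp2, Ltbp3, Ltbp4, Fbn1 and Fbn2. They were taken by symbol from a RefSeq table that places 21523 protein-coding genes on chromosomes 1 to 19 and X, and all 6 were found. The data are lists of peaks from CUT&RUN on E13.5 molars, the tooth germs of wild-type CD1 mice in mid-gestation, an assay in which an antibody directs micrococcal nuclease to its target and the released DNA is sequenced. The groups are 2 libraries for pSmad1/5, the phosphorylated form of Smad1 and Smad5, and 2 for pSmad3, phosphorylated Smad3, each with its own antibody, with no treatment and no mutant in either. The authors deposited 1 list per antibody, of peaks common to its libraries, so no value per library and no test between libraries could be had. The germs were dissociated whole, so dental epithelium and mesenchyme were mixed, and fewer cells with a bound site cannot be told apart from weaker binding per cell. No RNA was measured in these files, so the tissue was not checked against marker levels. The sources used here do not say whether germs of several embryos were pooled.

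TGF-β is secreted in an inactive complex with its own propeptide, and the latent TGF-β binding proteins (LTBPs) tie that complex to the extracellular matrix, from which the growth factor is later released. LTBP1 and LTBP3 bind the propeptide covalently, LTBP4 does so less efficiently, and LTBP2 lacks this binding. Fibrillins are the large glycoproteins from which microfibrils are built. LTBPs dock on these fibrils, which also bind propeptides of BMPs and so stand at a meeting point of the ligands that act through Smad3 and through Smad1/5. Mutations of human LTBP3 cause missing teeth and enamel defects, and mutations of human FBN1 cause Marfan syndrome.

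A deposited line is called a peak here. Each line carries the total signal and the maximum signal of a call by SEACR, the authors' peak caller, and lines that share both values and the region of the maximum are pieces of 1 call. The pSmad1/5 list holds 10741 peaks from 8380 calls, and the pSmad3 list holds 7905 peaks from 7682 calls. A locus is the gene and 10 kb on each side. Signals are the authors' values in their own scaling and are used to describe or rank calls within a list, not to compare the antibodies.

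Peaks of pSmad1/5 lay in the loci of Ltbp1, Ltbp2, Ltbp4 and Fbn1, and peaks of pSmad3 in those of Ltbp2, Ltbp3, Ltbp4 and Fbn1. Fbn2 had no peak of either antibody. The count was thus 4 of 6 genes for pSmad1/5, against 27.3% of all protein-coding genes, and 4 of 6 for pSmad3, against 24.4%. Peaks of both antibodies were found at 3 of 6 genes, against 14.1% of protein-coding genes. The genes were grouped with earlier results of these data known, so these counts are a description with no test.

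The loci held 9 pSmad1/5 peaks from 8 calls and 6 pSmad3 peaks from 6 calls. Ltbp2 had the most, with 4 pSmad1/5 calls and 3 pSmad3 calls, and Ltbp4 followed with 2 pSmad1/5 calls and 1 pSmad3 call. Fbn1 had 1 call of each antibody. Ltbp1 had a pSmad1/5 call alone and Ltbp3 a pSmad3 call alone, where alone means that no peak of the other antibody touched the locus. The median gene of the family had 1 pSmad1/5 call and 1 pSmad3 call, and the median protein-coding gene had 0 of each.

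**Figure D1:**
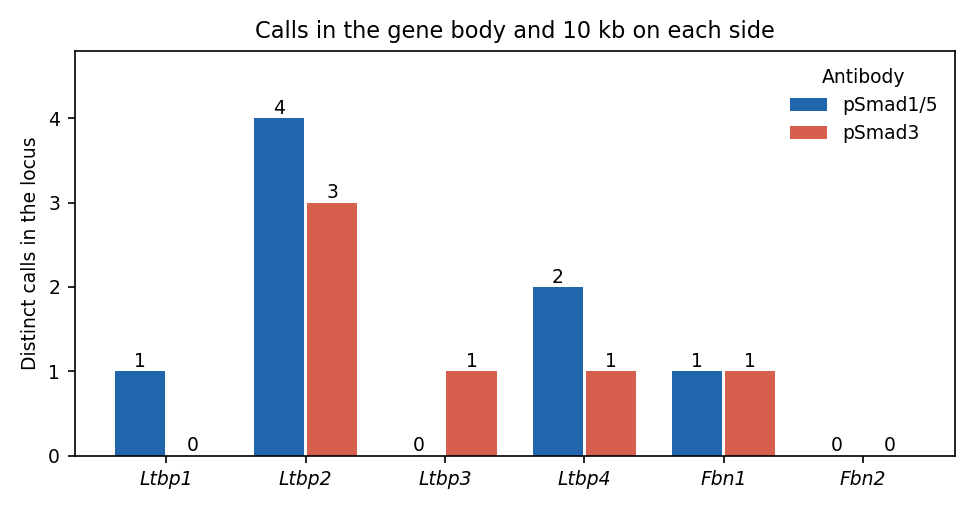
Distinct calls in the locus (vertical axis) of each gene, for pSmad1/5 (blue) and pSmad3 (red). Ltbp2 has 4 and 3 calls, and Fbn2 has 0 of either antibody.

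Locus length differed widely within the family and bears on how many peaks a gene can hold. The Ltbp1 locus spans 407 kb and is longer than 98.3% of protein-coding loci, the Fbn1 and Fbn2 loci span 226 and 222 kb, the Ltbp2 locus 113 kb, the Ltbp4 locus 54.6 kb and the Ltbp3 locus 37.6 kb. Among protein-coding genes with a locus from 0.5 to 2 times as long, the share with a pSmad1/5 peak was 45.8% for the length of Ltbp1, 40.2% for Fbn1, 39.8% for Fbn2, 33.0% for Ltbp2, 28.2% for Ltbp4 and 24.6% for Ltbp3. The corresponding pSmad3 shares were 39.2%, 34.3%, 34.1%, 29.8%, 25.8% and 22.2%. The order of the genes by number of calls was therefore not their order by length. The 3 longest genes had 1, 1 and 0 pSmad1/5 calls and 0, 1 and 0 pSmad3 calls, while Ltbp2 and Ltbp4, of middle length, had 4 and 2 pSmad1/5 calls and 3 and 1 pSmad3 calls.

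Per 100 kb of locus, Ltbp2 had 3.53 pSmad1/5 calls and 2.65 pSmad3 calls, and Ltbp4 had 3.66 and 1.83. Ltbp3 reached 2.66 pSmad3 calls per 100 kb with a single call in a short locus, and Fbn1 had 0.443 of each. Ltbp1 had 0.246 pSmad1/5 calls per 100 kb. Summed over the 6 loci the density was 0.754 pSmad1/5 calls per 100 kb, against 0.546 over all protein-coding loci, and 0.566 pSmad3 calls per 100 kb, against 0.518. Without Ltbp2 the family's densities were 0.422 for pSmad1/5 and 0.317 for pSmad3, so the excess of calls over the genome rested on that 1 gene. Both values are below those of all protein-coding loci, but the comparison is trimmed on 1 side. Ltbp2 is the gene of the family with the most calls, and no gene rich in calls was left out of the genome's densities.

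Ltbp2, which binds fibrillin microfibrils and not latent TGF-β, lies on chromosome 12 from 84783212 to 84876558 (mm10, minus strand). Its pSmad1/5 peaks all lay inside the gene. In the direction of transcription their midpoints fell 23.5, 49.9, 72.1, 81.4 and 91.7 kb after the transcription start. The last 2 of these, 8187 bp apart at 84794073 to 84796198 and 84783606 to 84785885, are pieces of 1 call whose maximum lay between them. That call spans at least 12593 bp at the end of the gene, and its total signal of 104724 is above 87.5% of pSmad1/5 calls. The call nearest to the start (84851859 to 84854203) had a total of 98150, above 85.6% of calls. The remaining calls were lower, at 49379 (above 47.8% of calls) and 38674 (above 15.1%).

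The pSmad3 peaks of Ltbp2 were spread over the whole locus, 1 before the gene, 1 inside it and 1 over its far end. The first (84881914 to 84885787) lay 5356 bp outside the gene, and the maximum of its call lay 1908 bp outside, in the neighbouring long noncoding RNA gene D030025P21Rik. The second (84833224 to 84837143) lay 41.3 kb after the start, and the third (84780086 to 84786496) 93.2 kb after it. Their total signals of 43210, 48484 and 51738 were above 79.4%, 83.3% and 85.4% of pSmad3 calls. All 3 pSmad3 calls of Ltbp2 thus ranked well above the median of their list.

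The antibodies overlapped at 1 place in Ltbp2, the far end of the gene, where the whole pSmad1/5 piece of 2280 bp lay within the pSmad3 peak. The maxima of these overlapping calls were 10340 bp apart, that of pSmad1/5 inside the gene and that of pSmad3 3831 bp past it. The other pSmad1/5 peaks of the gene lay 5.55 to 17.6 kb from the nearest pSmad3 peak. At least 4 pSmad1/5 calls together with at least 3 pSmad3 calls were found at 95 of 21523 protein-coding genes (0.441%) and at 40 of 5471 genes with a locus of 0.5 to 2 times the length (0.731%). The same 4 and 3 calls as Ltbp2 were found at 11 other protein-coding genes, of which Ppp2r2c and Rex2 are nearest in locus length, at 108 and 107 kb.

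Ltbp2 is shown by its promoter because it has the most calls and none of its peaks covers its start. The nearest pSmad3 peak ended 5173 bp from the promoter window and the nearest pSmad1/5 peak 22239 bp from it. The sequence is RefSeq's for GRCm38.p6 (the assembly of mm10), chr12:84876442-84876741, minus strand, from 250 bases before the start to 50 after it. Capitals mark matches to CAGAC, the core of the Smad binding element, or to its reverse complement GTCTG.
Ltbp2 promoter: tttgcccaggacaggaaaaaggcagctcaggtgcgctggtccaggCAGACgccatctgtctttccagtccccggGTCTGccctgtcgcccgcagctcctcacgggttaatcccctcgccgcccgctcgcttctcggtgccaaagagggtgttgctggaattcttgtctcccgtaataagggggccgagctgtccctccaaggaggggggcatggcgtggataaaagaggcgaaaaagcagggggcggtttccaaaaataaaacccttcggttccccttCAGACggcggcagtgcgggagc
It holds 3 such matches. At least 1 match was present in 48.3% of the 21045 promoters of protein-coding genes, so its presence sets no gene apart, and a match in these letters is not a bound site. The share of promoters with 3 or more matches was not counted.

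**Figure D2:**
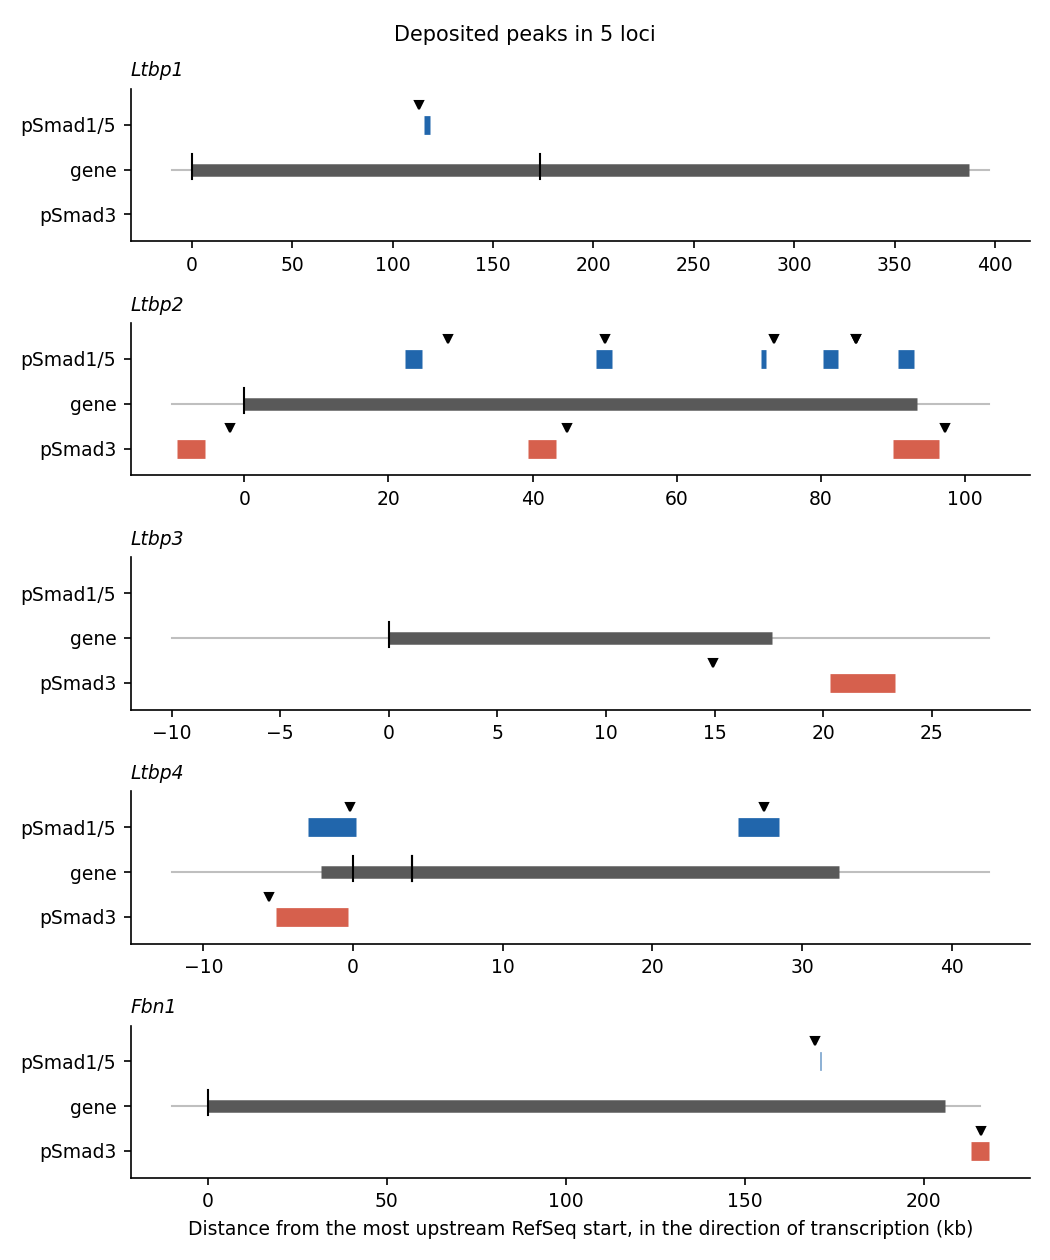
Deposited peaks along 5 loci, by distance from the most upstream RefSeq start in kb. Blue bars are pSmad1/5 peaks, red bars pSmad3 peaks, triangles the middle of each call's maximum, dark bars the gene, thin lines the 10 kb margins and upright lines the starts; Fbn2, with 0 peaks, is not drawn. In Ltbp2 the peaks of the antibodies meet only at the far end, and in Ltbp4 upstream of the first listed start and near it.

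Ltbp4, needed for elastic fibre assembly as well as for TGF-β latency, was the gene where peaks of the antibodies overlapped upstream of a listed transcription start and near it. The gene lies on chromosome 7 from 27305140 to 27339720 (minus strand), and RefSeq promoter entries place starts at 27337612 and, about 4 kb downstream, at 27333663 and 27333648. A pSmad1/5 peak (27337439 to 27340644) covered the upstream start. It was the 1 peak of the 15 in these loci that covered a listed start. The pSmad3 peak (27337957 to 27342765) began 345 bp upstream of the same start and ran into the neighbouring gene Shkbp1, in which the maximum of its call lay. Both peaks cover the upstream end of the annotated gene at 27339720, which lies before every listed start. The peaks shared 2688 bp, which is 83.8% of the pSmad1/5 peak and 55.9% of the pSmad3 peak, but the maxima of the calls lay 5380 bp apart. A second pSmad1/5 peak (27309178 to 27311907) lay inside the gene, 27.1 kb after the upstream start and 26.1 kb from the nearest pSmad3 peak.

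The total signals at Ltbp4 were low within both lists. The totals of 39920 and 40221 were above 20.02% and 21.1% of pSmad1/5 calls, and that of 24164 was above 28.01% of pSmad3 calls. The pSmad1/5 calls reached 14 and 13 at their maximum, below the list median of 16, and the pSmad3 maximum was 15, at the upper quartile of its list.

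The Ltbp4 promoters are shown because the region of the pSmad1/5 maximum falls inside the upstream one. It is 20 bases long and lies 213 to 232 bp before the listed start, inside the annotated gene. In the upstream promoter (chr7:27337563-27337862, minus strand) capitals mark that region, and in the downstream promoter (chr7:27333599-27333898, minus strand), which no peak touched, they mark a match to GGCGCC, a GC-rich Smad motif.
Ltbp4 upstream promoter: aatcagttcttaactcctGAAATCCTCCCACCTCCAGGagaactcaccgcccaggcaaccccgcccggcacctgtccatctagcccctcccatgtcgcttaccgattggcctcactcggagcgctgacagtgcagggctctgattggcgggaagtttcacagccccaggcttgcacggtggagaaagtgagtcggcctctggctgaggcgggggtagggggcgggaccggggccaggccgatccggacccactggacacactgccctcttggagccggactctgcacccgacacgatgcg
Ltbp4 downstream promoter: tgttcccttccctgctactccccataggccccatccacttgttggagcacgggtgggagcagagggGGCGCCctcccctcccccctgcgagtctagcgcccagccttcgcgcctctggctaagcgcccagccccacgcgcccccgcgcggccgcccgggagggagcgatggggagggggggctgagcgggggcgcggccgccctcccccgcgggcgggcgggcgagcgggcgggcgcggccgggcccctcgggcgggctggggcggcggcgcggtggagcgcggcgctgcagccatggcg
The upstream promoter has 0 matches to CAGAC and 1 to GGAGCC or its reverse complement GGCTCC, which lies outside the capitals, so none of the motifs searched is in the 20 bases. The downstream promoter has 0 matches to CAGAC and 1 to GGCGCC. Over all protein-coding promoters, 35.2% hold GGAGCC or GGCTCC, 15.5% hold GGCGCC, its own reverse complement, and 0.228% hold the palindrome GTCTAGAC, which has 0 matches in the family's promoters. The same pair of 2 pSmad1/5 calls and 1 pSmad3 call was found at 366 other genes, of which Glp1r and Pak6 are nearest in locus length, at 54.6 and 55.0 kb.

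Ltbp3, whose human counterpart is linked to tooth number and enamel, had a pSmad3 peak just past its end and no pSmad1/5 peak in its locus. The gene lies on chromosome 19 from 5740900 to 5758536 (plus strand). The pSmad3 peak (5761201 to 5764194) lay 2665 bp past the gene, but the maximum of its call (5755781 to 5755862) lay inside Ltbp3, 14.9 kb after the start. The call spans at least 8414 bp across the end of the gene. Its total of 45090 was above 80.8% of pSmad3 calls, while its maximum of 13 equalled the list median.

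The absence of pSmad1/5 at Ltbp3 depended on where the locus was taken to end. A pSmad1/5 peak (5769186 to 5771749) lay 10650 bp past the gene, 650 bp outside the locus, with a total of 82817, above 79.2% of pSmad1/5 calls. The maximum of that call lay 6080 bp past the gene and 422 bp from the pSmad3 peak. Counted by the region of the maximum, a setting chosen after seeing the data, Ltbp3 had 1 call of each antibody. A pSmad3 peak lay just outside as well, 10243 bp past the gene, with a total of 29519, above 55.3% of calls. At Ltbp2, a further pSmad3 peak lay 10378 bp before the gene, with a total of 26599, above 42.3% of calls. With pSmad3 alone at 1 call, Ltbp3 matches 1829 other genes, of which Mfng and Churc1 are nearest in locus length, at 37.6 kb each.

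Ltbp1, the main carrier of latent TGF-β1 in many tissues, had a single pSmad1/5 peak. The gene lies on chromosome 17 from 75005480 to 75392512 (plus strand), with starts of a long and a short form at 75005529 and 75178781. The peak (75121147 to 75124072) lay between them, 117 kb after the first start and 54709 bp before the second. Its total of 46351 was above 40.9% of pSmad1/5 calls and its maximum was 12, against a list median of 16. The nearest pSmad3 peak lay 1035 kb away. Among genes of like locus length, 46.2% had no peak of either antibody. The pattern of 1 pSmad1/5 call alone was shared by 2443 other genes, of which Babam2 and Zfp407 are nearest in locus length, at 407 and 402 kb.

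Fbn1, the main microfibril protein, had 1 peak of each antibody in the last part of its long locus, and both were weak. The gene lies on chromosome 2 from 125300594 to 125506485 (minus strand). The pSmad1/5 peak (125335098 to 125335334) lay 171 kb after the start and is 237 bp long, the shortest of the 15. The total of its call was 37094, above 7.63% of pSmad1/5 calls, and its maximum was 12. The pSmad3 peak (125288196 to 125293195) lay 7399 bp past the gene, 41.9 kb from the pSmad1/5 peak, with a total of 22549, above 15.3% of pSmad3 calls, and a maximum of 10, against a list median of 13. The maximum of that pSmad3 call lay 10062 bp past the gene, 62 bp outside the locus. No peak lay within 33084 bp of the Fbn1 promoter. A pair of 1 and 1 calls was found at 1412 other genes, of which Filip1 and Trabd2b are nearest in locus length, at 228 kb each.

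Fbn2, the fibrillin of embryonic microfibrils, had 0 peaks of either antibody in its locus (gene on chromosome 18, 58008623 to 58210572), and also 0 within 50 kb of the gene. In genes of like length, 50.6% had no peak of either antibody in the locus. An absent peak means no deposited call common to the libraries of an antibody. Signal under the authors' threshold was not examined, and the read depth is unknown.

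Calls with a high total signal lay in Ltbp2 and Ltbp3. Of the 8 pSmad1/5 calls, 2 had a total above the list median of 50413, both in Ltbp2, and of the 6 pSmad3 calls, 4 had a total above the list median of 28212, 3 in Ltbp2 and 1 in Ltbp3. The maxima of the calls ran from 12 to 17 for pSmad1/5 (list median 16, quartiles 14 and 18) and from 10 to 17 for pSmad3 (list median 13, quartiles 12 and 15). Of the 8 pSmad1/5 calls, 1 exceeded the list median, and of the 6 pSmad3 calls, 2 did. For pSmad1/5, the maxima of 12 at Ltbp1 and Fbn1 and of 13 over the upstream start of Ltbp4 lay below the lower quartile. For pSmad3, that of 10 at Fbn1 lay below the lower quartile and that of 17 at Ltbp2 above the upper one. No call of these genes had a maximum over 2 times its list median.

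**Figure D3:**
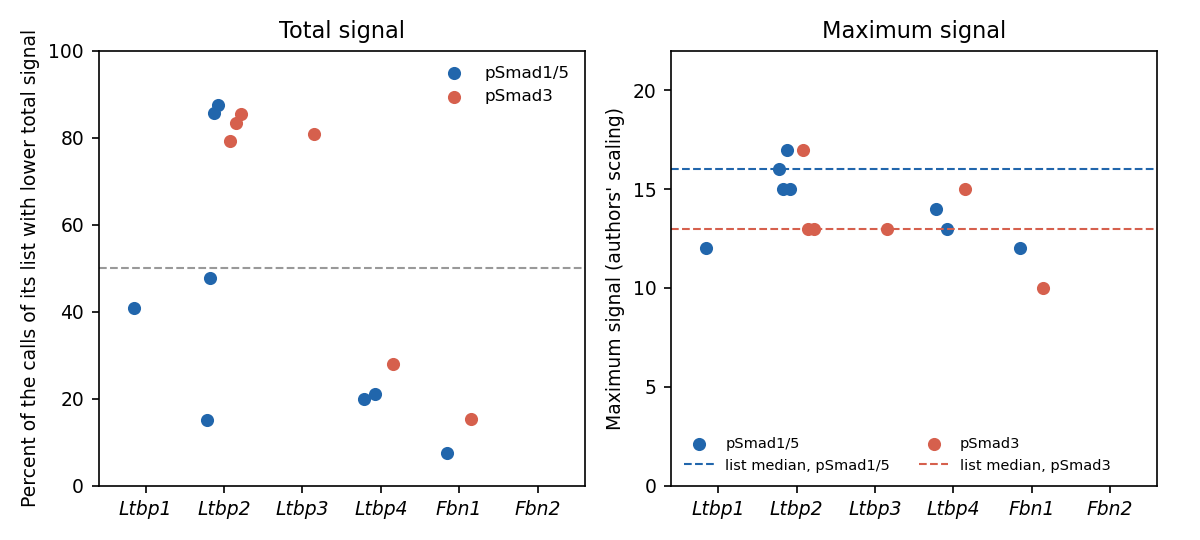
Left, the percent of calls of the same list with a lower total signal, for each call of each gene; right, the maximum signal in the authors' scaling, with dashed lines at the list medians of 16 (pSmad1/5) and 13 (pSmad3). Blue points are pSmad1/5 calls and red points pSmad3 calls. Of the 6 points above 50 on the left, 5 are in Ltbp2 and 1 in Ltbp3.

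Many deposited peaks of these genes were shorter than the calls whose signal they carry. If the total is the sum of signal over bases, a call is at least as long as its total divided by its maximum. By this measure 8 of the 9 pSmad1/5 peaks were shorter than their call, against 77.9% of that list, and 1 of the 6 pSmad3 peaks, against 19.5%. The 237 bp pSmad1/5 peak of Fbn1 belonged to a call of at least 3091 bp, of which it is at most 7.67%. Of 9 pSmad1/5 peaks, 3 contained the maximum of their call, against 27.1% of the list, and of 6 pSmad3 peaks, 1 did, against 70.0%. The position of a call's maximum and of its deposited peak therefore often differed, by up to 3835 bp for pSmad1/5 and 5338 bp for pSmad3.

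Overlap between the antibodies in these loci was near that of the lists as a whole. At least 1 bp was shared by 2 of 9 pSmad1/5 peaks (22.2%), against 22.6% of the whole pSmad1/5 list, and by 2 of 6 pSmad3 peaks (33.3%), against 23.8% of the pSmad3 list. When at least 50% of a peak had to be shared, 1 of 6 pSmad3 peaks remained (16.7%), against 10.2% of the list, and still 2 of 9 pSmad1/5 peaks. By calls, at least 1 bp was shared by 2 of 8 for pSmad1/5, against 20.6% of the list, and by 2 of 6 for pSmad3, against 23.7%. Of the 3 genes with both antibodies, Fbn1 had no overlapping pair.

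Most pSmad1/5 peaks lay inside the genes, and most pSmad3 peaks at or beyond gene ends, a difference that was not tested. Of the 9 pSmad1/5 peaks, 8 lay wholly inside a gene, 1 over a gene end and 0 outside, against 51.1%, 12.5% and 36.4% over all protein-coding loci. Of the 6 pSmad3 peaks, 1 lay wholly inside, 2 over a gene end and 3 outside, against 46.9%, 19.5% and 33.6%. When only the gene itself was counted, with no margin, pSmad1/5 peaks were still found at 4 genes, against 18.4% of protein-coding genes, and pSmad3 peaks at 2, Ltbp2 and Ltbp4, against 16.8%. The pSmad3 peaks were also longer, from 2994 to 6411 bp, against 237 to 3206 bp for pSmad1/5, and peak length was not matched here. Gene length was not matched either. The loci of the family run from 37.6 to 407 kb, against a median of 37.4 kb for all protein-coding genes. With margins fixed at 10 kb, a longer gene fills more of its locus. Ltbp2 held 5 of the 9 pSmad1/5 peaks, of which 2 are pieces of 1 call.

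**Figure D4:**
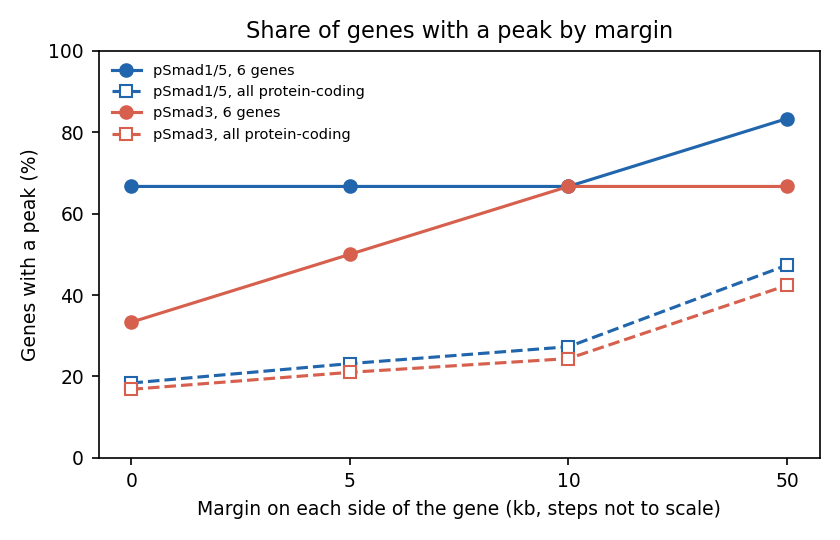
Share of genes with a peak (percent) by the margin added on each side of the gene (0, 5, 10 and 50 kb). Filled circles are the 6 Ltbp and fibrillin genes and open squares all protein-coding genes, blue for pSmad1/5 and red for pSmad3. The pSmad1/5 count is 4 of 6 at 0 to 10 kb and 5 at 50 kb, while the pSmad3 count is 2 at 0, 3 at 5 and 4 at 10 and 50 kb. At 50 kb the shares of all protein-coding genes are 47.3% and 42.4%.

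Other genes of microfibrils and elastic fibres had peaks of the antibodies more often than genes in general, by count. Of 27 genes listed, 26 were matched (Adamtsl6 was not). A pSmad1/5 peak lay in the locus of 13 (50%), against 27.3% of protein-coding genes, and a pSmad3 peak in that of 14 (53.8%), against 24.4%. Both were present at 11 of 26, against 14.1%, and neither at 10, against 62.4%. The median locus of the list was 54.4 kb, against 37.4 kb for all protein-coding genes. The list was written with results on related genes known and has no test.

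Some fibulins, which link microfibrils to elastin and basement membranes, had as many calls as Ltbp2 or more, and others had fewer. Fbln2 had 4 pSmad1/5 calls and 4 pSmad3 calls, the highest above 88.1% and 94.7% of their lists. Fbln1 had 4 and 3, the highest above 82.2% and 73.9%, while Fbln5 had 1 and 1 and Efemp2 (fibulin-4), needed for elastin crosslinking, 1 and 1. Efemp1 (fibulin-3) had 0 of either. Hspg2, the proteoglycan perlecan, had 3 and 4 calls, the highest above 95.7% and 91.0%. These 3 genes, Fbln1, Fbln2 and Hspg2, have loci of 100.3, 80.1 and 122 kb, against 113 kb for Ltbp2.

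Of 3 microfibril-associated proteins on the list, Mfap2 and Mfap4 had peaks of both antibodies and Mfap5 had 0 of either. Mfap4 had 1 call of each, above 85.2% of pSmad1/5 and 86.2% of pSmad3 calls, and Mfap2 had 2 of each, the highest above 77.8% and 77.2%. Adamtsl2, which binds LTBP1 and fibrillin-1, had 1 pSmad1/5 call and 4 pSmad3 calls, the highest pSmad3 call above 82.6%. Among lysyl oxidase relatives, which crosslink elastin and collagen, Loxl3 had 1 call of each antibody, Loxl4 1 pSmad1/5 call alone and Loxl1 1 pSmad3 call alone, while Lox and Loxl2 had 0 of either. Efemp1, Mfap5, Loxl3, Lox and Loxl2 were named after their values were seen.

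Genes of TGF-β storage and activation outside the family were closer to genes in general. Of 20 genes, 6 had a pSmad1/5 peak (30%), against 27.3% of protein-coding genes, and 7 a pSmad3 peak (35%), against 24.4%. Both were present at 3 of 20, Tgfb3, Bmp1 and Itgb5, against 14.1% of protein-coding genes, and neither at 10, against 62.4%. The median locus of this list was 48.1 kb, against 37.4 kb for all protein-coding genes. Tgfb3, a TGF-β ligand, had 2 and 1 calls, the highest above 82.5% of pSmad1/5 and 71.1% of pSmad3 calls. Bmp1, the protease that cleaves LTBP1, had 2 and 2, the highest above 96.8% and 89.9%. Itgb5, a subunit of an integrin that releases TGF-β, had 1 and 1, above 92.0% and 3.7%.

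A further 7 genes of that list had peaks of a single antibody. Lrrc32 (GARP), which holds latent TGF-β on cell surfaces, had 1 pSmad1/5 call in 3 pieces, above 96.3% of its list. The integrin subunit Itgb3 and the gelatinase Mmp9 each had 1 pSmad1/5 call, above 17.1% and 0.4%. Furin, which cleaves the TGF-β precursor, had 1 pSmad3 call, above 93.1% of its list. Tgm2, the transglutaminase that crosslinks LTBP1 to the matrix, had 2 pSmad3 calls, the higher above 74.7%. Emilin1 and Itgb6 had 1 pSmad3 call each, above 1.1% and 15.6%.

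**Figure D5:**
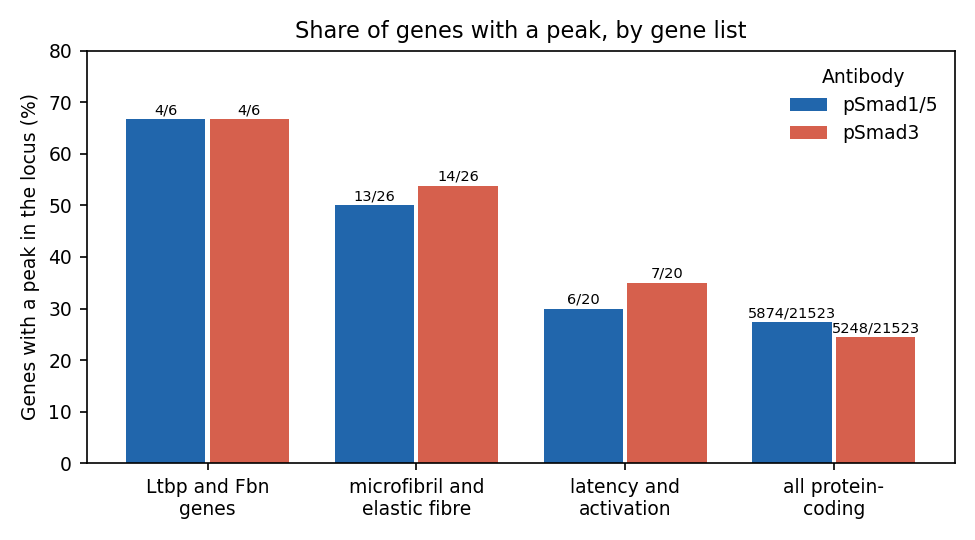
Percent of genes with a peak in the locus, for pSmad1/5 (blue) and pSmad3 (red), in the Ltbp and fibrillin genes, the microfibril and elastic fibre list, the latency and activation list and all protein-coding genes, with counts above the bars. The share is 66.7% for both antibodies in the 6 genes, against 27.3% and 24.4% of protein-coding genes.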

How the data were processed

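CUT&RUN was measured in 4 libraries, 2 per antibody. Digestion lasted 30 min and reads were paired and 100 bp long, per the labels' protocols. Per the submitters' processing notes the build was mm10 and the tools were SEACR, Bowtie2, bedtools, SAMtools and deepTools, without versions. The sources used here do not give settings, the SEACR threshold, any control library or how libraries were joined. Per the labels, the deposited maximum is the highest coverage signal of a call and the total is its sum, in a scaling of the authors. Read depth is unknown, and no interval rests on it.

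Positions were read as 0-based starts and printed 1-based. Genes came from RefSeq GRCm38.p6 (no exons), without genes starting in the first 3 Mb of a chromosome. Transcription starts, strand and promoters came from the RefSeq promoter table, which matched 5 of the 6 genes (not Fbn2, which was not used there). A gene had a peak if a peak touched the gene or 10 kb on each side, and overlap meant at least 1 bp. Percentiles give the share of distinct calls of a list with a lower total. Motifs were searched on both strands of promoters of 300 bases. Counting used Python 3.11.15 and pandas 2.3.3 and was checked on planted peaks.

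The genes, lists and counts were chosen with earlier results of these data known. Named genes were the 6 genes, up to 10 genes with a peak per list by percentile, and the 2 genes nearest in locus length with the same calls. Alternatives covered the margin, peak midpoints, stronger peaks, high maxima and the overlap. Stronger peaks had a total at or above the median over all peaks of the list, where each piece of a call counts. The list medians of the total given above are over distinct calls. The alternative by region of the maximum was added after the data were seen. No test was run, since each antibody has 1 list. Some items are not reported here.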

Additional observations from a re-analysis of the deposited data

How the results depend on the processing

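The 69 values recomputed under alternatives moved in 12 cases, where a count moved if it changed by over 1.5 times and a share if it left the exact 95% binomial interval of its main value. These intervals are wide, so the fall of the shared pSmad3 peaks to 16.7% (1 of 6) with an overlap of 50% was not counted. With no margin, pSmad3 peaks were at 2 of the 6 genes (3 calls), beside 16.8% of protein-coding genes. With 50 kb, the family had 10 pSmad3 calls. At that margin pSmad1/5 peaks lay at 10 and pSmad3 peaks at 11 of 20 latency and activation genes. The shares of all protein-coding genes were then 47.3% and 42.4%. With the stronger peaks alone, 1 gene (Ltbp2) kept a pSmad1/5 peak (2 calls), 2 (Ltbp2 and Ltbp3) a pSmad3 peak and 1 both, beside 14.4%, 14.1% and 6.3% of protein-coding genes, since the setting drops the weaker calls of the other genes. In that setting 4 of 20 latency and activation genes had a pSmad3 peak, and 8 and 9 of 26 microfibril and elastic fibre genes a pSmad1/5 and a pSmad3 peak. Peak midpoints changed no count of the family. The removal of high maxima could change none of them, since no call of these genes had a maximum over 2 times its list median. By the region of the maximum, Ltbp3 gained pSmad1/5 and Fbn1 lost pSmad3, with 5 and 3 genes in all, beside 25.7% and 22.7% of protein-coding genes. No paired analysis was possible because each antibody has 1 joined list with no value per library, so leaving out a replicate was not run either. Shares of 9 and 6 peaks, and counts over 6 genes, move by large steps with a single peak.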
